A study of Mus musculus with 6 samples.

Results

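The structural genes of the extracellular matrix were examined in hepatocytes that had been isolated from alcohol-fed mice, either WT or S100a16KO+/-. They were taken by name from the deposited table, as collagen chains (Col genes), laminin chains (Lama, Lamb, Lamc), fibrillins, fibulins, nidogens and lysyl oxidases, with Fn1, Sparc, Bgn, Hspg2 and Eln. This gave 63 of the 25718 genes in the table. RNA was sequenced from 3 libraries per genotype, and each gene carried an estimated count and an FPKM value, which is scaled for transcript length and library size. S100a16KO+/- mice are heterozygous for a deletion of the floxed exons 2 to 3 of S100a16, made with EIIa-Cre, a Cre that acts in the early embryo, so the allele was lost in all tissues and not in hepatocytes alone. The sample labels name this genotype an S100A16 knockdown. In the methods of the study the mice were males of 8 to 10 weeks with a C57BL/6 background, and the feeding scheme was 5 days of control liquid diet, 10 days of 5% ethanol diet and 1 ethanol gavage of 5 g/kg, with collection 9 h later. All 6 libraries of the series thus came from alcohol-fed animals, and none came from pair-fed animals. Hepatocytes were obtained by collagenase perfusion and a Percoll gradient. Whether each library came from its own animal is not stated, so the p values measure the spread between these libraries.

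The extracellular matrix of the liver is scant beside that of other organs. Fibrillar collagens (types I, III and V) form the tensile fibrils around vessels and, in fibrosis, along the sinusoids, where stellate cells are their main source. Type IV collagen and laminins form the networks of basement membranes, nidogens and perlecan link these networks, and hepatocytes themselves secrete plasma fibronectin and type XVIII collagen. Collagen chains are hydroxylated and folded into triple helices in the endoplasmic reticulum before export, and lysyl oxidases crosslink the fibrils outside the cell.

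The estimated counts added up to 67658095 to 71807834 per library. One sequenced fragment was worth about 4 counts, since 931 to 1011 genes per library had a count of 4 against 495 to 561 with a count of 3, so the limit that a count of 0 sets is 12 counts, the worth of 3 fragments, for counting error only. S100a16 had 1001 to 1107 counts in WT and 366 to 433 in S100a16KO+/- libraries. On the second principal component of all tested genes, which held 17.2% of the variance, WT replicate 1 and S100a16KO+/- replicate 2 stood apart from the other 4 libraries with scores of 22.1 and 38.4 against -20.3 to -5.78. The hepatocyte label was borne out by 8 hepatocyte markers including Alb, whose summed FPKM was 49810 to 50830 in WT and 49010 to 49740 in S100a16KO+/- libraries. Alb alone had a mean of 33700 FPKM in WT and 32700 FPKM in S100a16KO+/- libraries, so the sum mostly follows Alb. Among these markers 1, Tat, was higher and 2, Cyp2e1 and Ttr, were lower at an adjusted p under 0.05 in the edgeR test given below. Their log2 fold changes were 0.17, -0.33 and -0.33. The shares over all tested genes were 11.6% higher and 11.2% lower.

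Structural matrix genes were more often higher than lower in S100a16KO+/- hepatocytes, by small margins at the abundant genes. Of the 63 genes, 51 passed the filter on low counts and were tested. With edgeR's quasi-likelihood test and Benjamini-Hochberg adjustment over all 15957 tested genes, 14 members were higher and 4 were lower at an adjusted p under 0.05, and 33 passed in neither direction. Over all tested genes 22.8% were called, 11.6% higher and 11.2% lower, and among the tested members the shares were 27.5% higher and 7.84% lower. The median log2 fold change was 0.34 over the tested members and 0.01 over all tested genes. The methods of the study name an unadjusted p under 0.05 with a fold change of at least 2, in DESeq2. By these limits in the edgeR fit, 4 members (Col6a1, Efemp2, Col5a2 and Lamb1) were higher, against 2.9% of all tested genes. In the same fit 2 (Lamb3 and Col5a3) were lower, against 1.62%. With DESeq2 5 members were higher and 2 lower by these limits. In 20 tested members all S100a16KO+/- FPKM values lay above all WT values, and in 4 all lay below, where 18.7% and 15.8% of all tested genes did so. The number of higher members was 8 to 11 with each library left out in turn, with the 8 without WT replicate 3. It was 9 without WT replicate 1 and S100a16KO+/- replicate 2 together. The same 4 genes stayed lower in each of these fits. A fit with fewer libraries also has less power, and the part of this in the drop was not tested.

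**Figure D1:**
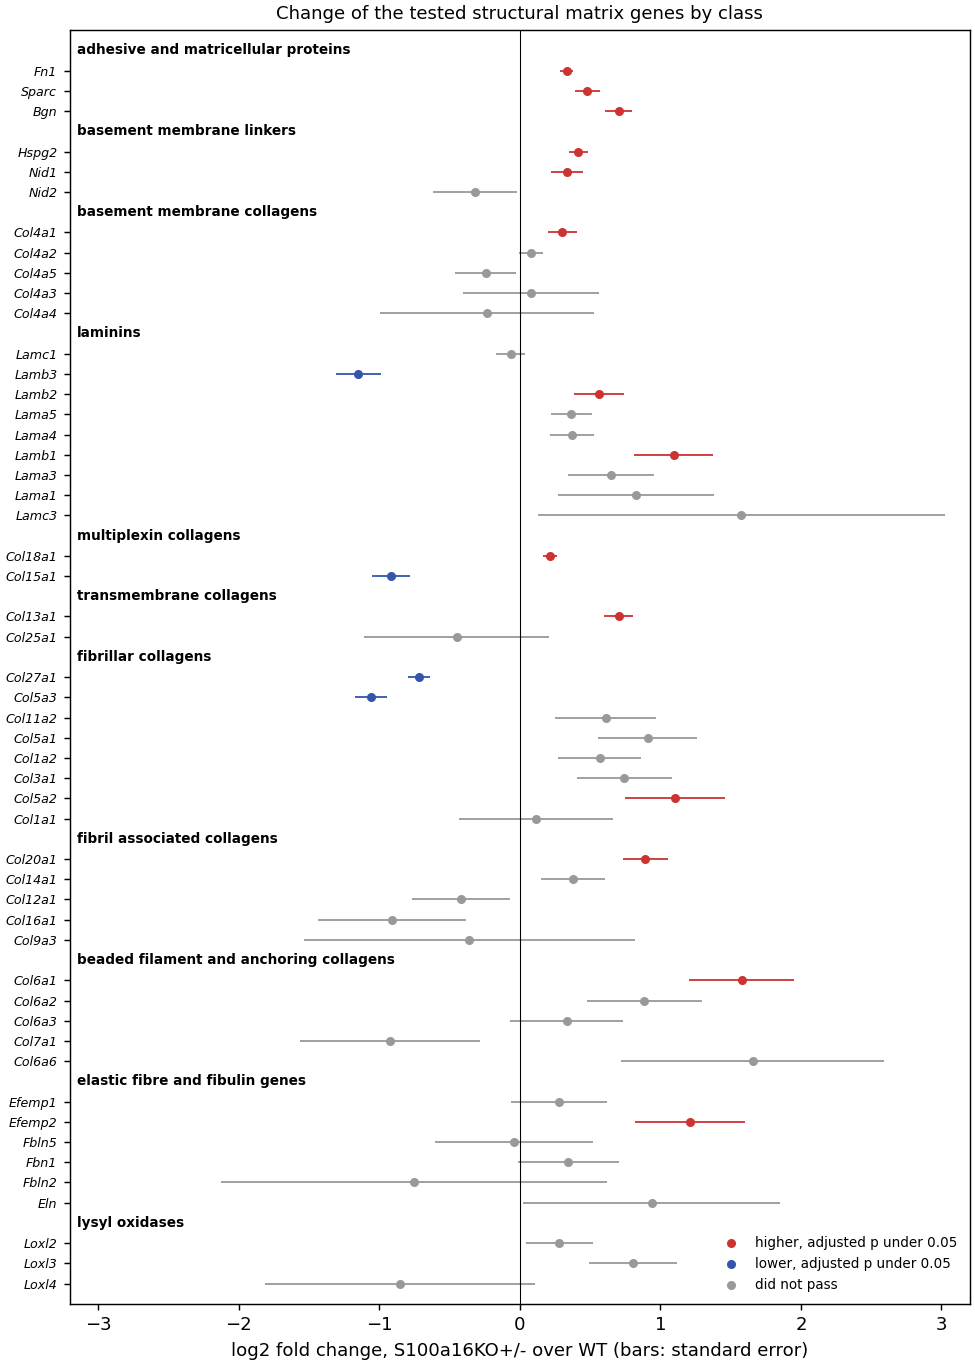
Log2 fold change of S100a16KO+/- over WT hepatocytes (x axis) for the 51 tested structural matrix genes (y axis), grouped by class and ordered by level within each class; points are edgeR estimates, bars are standard errors, and colour gives the call at an adjusted p under 0.05. The 14 higher genes are spread over most classes, and the 4 lower genes are Lamb3, Col15a1, Col27a1 and Col5a3.

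Of the marker lists of other cell types, those of sinusoidal endothelial and stellate cells had most of the higher genes. Over all tested genes 11.6% were higher and 11.2% lower, and the counts of each list are read beside these shares. Of 12 markers of sinusoidal endothelial cells, 11 were higher and 1, Lyve1, was lower. Their summed FPKM was 55.8 to 61.0 in WT and 84.0 to 86.6 in S100a16KO+/- libraries, 1.46-fold higher on average, and the median log2 fold change was 0.62. Of 15 markers of stellate cells and fibroblasts, 7 were higher, 0 lower and 8 in neither direction, with a summed FPKM of 13.45 to 13.7 in WT and 22.2 to 23.5 in S100a16KO+/- libraries, 1.67-fold higher. Most of these sums came from Dcn, which rose from 3.71 ± 0.0214 to 7.24 ± 0.265 FPKM, and Ecm1, from 6.75 ± 0.134 to 10.2 ± 1.08 FPKM (SD, n = 3 each). The 8 markers in neither direction were Acta2, Tagln, Des, Pdgfrb, Thy1, Postn, Gfap and Colec10. Kupffer and macrophage markers had 3 of 11 genes higher, 0 lower and 8 in neither direction, with a summed FPKM of 73.1 to 86.7 in WT and 89.1 to 97.0 in S100a16KO+/- libraries. Cholangiocyte markers (0 higher and 1 lower of 6 tested, summed FPKM 4.53 to 5.85 in WT and 4.49 to 5.13 in S100a16KO+/- libraries) and mesothelial markers (2 tested and 0 called, at most 0.259) had 0 higher genes, and Cftr, Wt1 and Lrrn4 among them were at or under 12 counts in all libraries. Blood cell markers were lower in 5 of 9 tested genes, led by haemoglobin chains, with a summed FPKM of 263 to 287.9 in WT and 28.4 to 29.4 in S100a16KO+/- libraries. None of the matrix members is in these lists. In such bulk libraries, more or fewer cells of a type and more or less RNA per cell cannot be told apart, and the part of RNA from other cells in the 14 rises and the 4 falls was not tested.

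**Figure D2:**
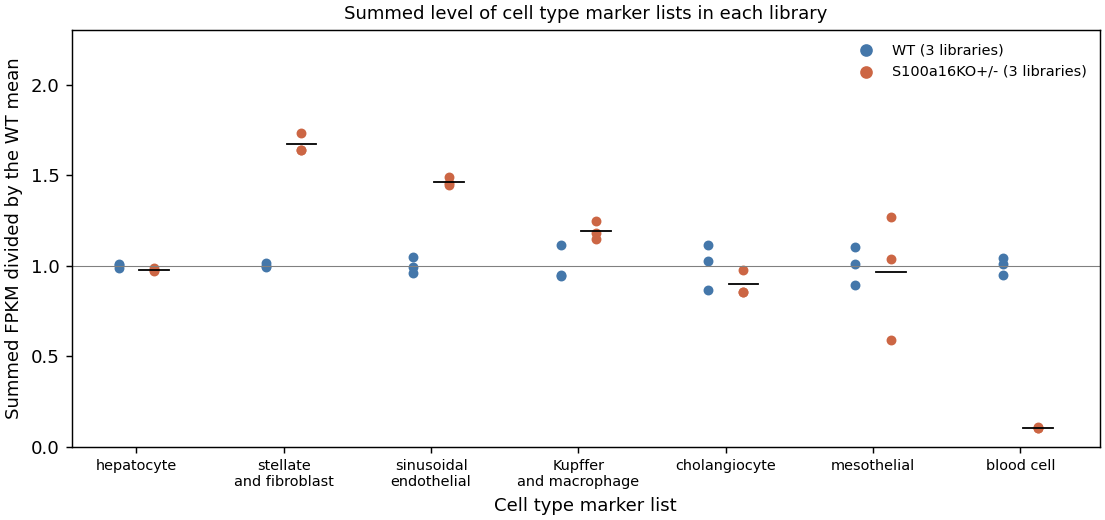
Summed FPKM of 7 cell type marker lists in each library divided by the mean of the 3 WT libraries (y axis, linear from 0); points are libraries and black bars are S100a16KO+/- means. The endothelial, stellate and Kupffer lists lie at 1.46, 1.67 and 1.19 times WT. The hepatocyte list lies at 0.977 of WT and the blood cell list at 0.104 of WT. None of these lists overlaps between genotypes, while the cholangiocyte and mesothelial lists do.

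Of the 63 genes, 2 made up most of the matrix RNA of these cells. Fn1, which encodes fibronectin, and Col18a1, which encodes the type XVIII collagen chain that carries endostatin, together held 87.8% to 89.1% of the summed FPKM of the members in every library. Fn1 (ENSMUSG00000026193, chromosome 1 from 71585520 to 71653175, minus strand) had FPKM values of 97.6, 104.5 and 100.5 in the WT replicates and 133, 125.4 and 124.4 in the S100a16KO+/- replicates. Every S100a16KO+/- library was above every WT library, and the log2 fold change was 0.33 (SE, the standard error of the fit, 0.05; adjusted p = 0.00017). Col18a1 (ENSMUSG00000001435, chromosome 10 from 77052178 to 77166548, minus strand) had FPKM values of 100.6, 110.6 and 104.3 in WT and 125.1, 121.4 and 120.5 in S100a16KO+/- libraries. The libraries again did not overlap, with a smaller log2 fold change of 0.21 (SE 0.05, adjusted p = 0.00586), and an adjusted p of 0.0506 without WT replicate 3. The means of these genes, 100.9 ± 3.48 and 105.1 ± 5.05 FPKM in WT hepatocytes (SD, n = 3 each), did not differ beyond their spread. All other members were at least an order of magnitude lower, and their summed FPKM was 26.9 to 29.8 in WT and 31.5 to 32.8 in S100a16KO+/- libraries.

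**Figure D3:**
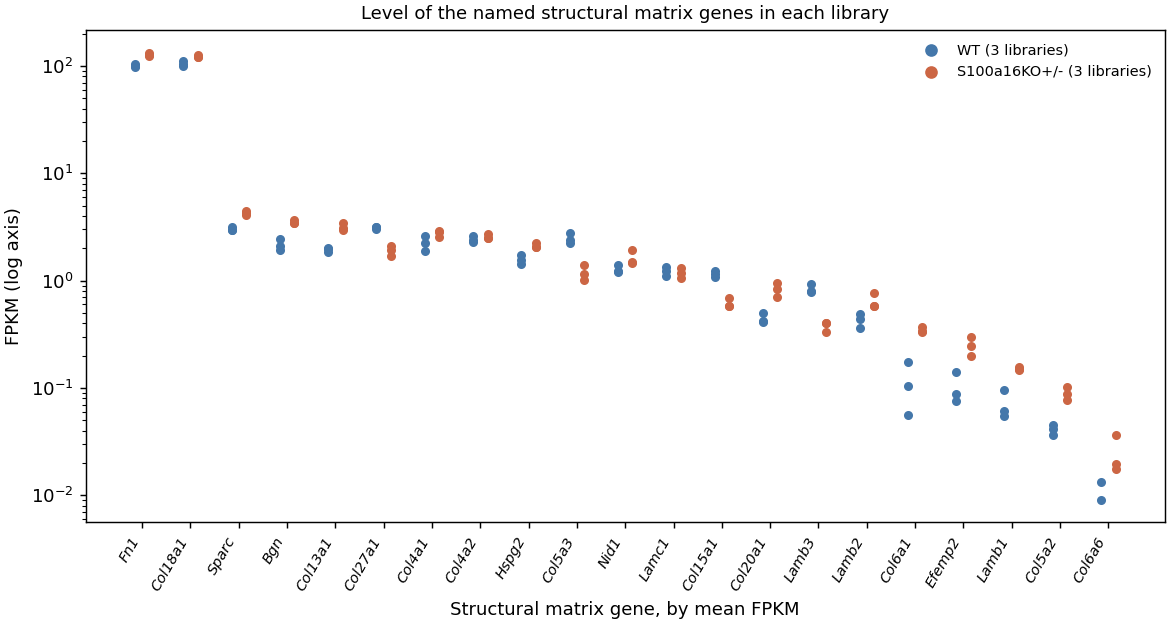
FPKM on a log axis of the 21 named structural matrix genes in each of the 6 libraries, ordered by mean level; each point is 1 library, and values of 0 are not drawn. Fn1 and Col18a1 lie near 100 FPKM, the next gene, Sparc, at 2.95 to 4.42 FPKM, and Col5a3, Col27a1, Col15a1 and Lamb3 have their S100a16KO+/- points below their WT points.

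All 3 genes of adhesive and matricellular proteins, Fn1, Sparc and Bgn, rose, as did a transmembrane collagen. Bgn, which encodes the small proteoglycan biglycan that binds collagen fibrils, had FPKM values of 1.94, 2.09 and 2.43 in WT and 3.44, 3.67 and 3.43 in S100a16KO+/- libraries. Its log2 fold change was 0.70 (SE 0.09, adjusted p = 8.02e-05). Sparc, a collagen-binding glycoprotein of remodelled matrix, rose from 3.04 ± 0.116 to 4.26 ± 0.183 FPKM (SD, n = 3 each), with a log2 fold change of 0.48 (SE 0.09, adjusted p = 0.00128). Col13a1, which encodes a transmembrane collagen of cell adhesion sites, had 1.99, 1.96 and 1.86 FPKM in WT and 2.99, 3.42 and 3.10 FPKM in S100a16KO+/- libraries. The log2 fold change of Col13a1 was 0.70 (SE 0.11, adjusted p = 0.0002), and in these 3 genes no S100a16KO+/- library overlapped a WT library.

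In the basement membrane, 2 of the 3 linker genes rose. Hspg2, which encodes the heparan sulfate proteoglycan perlecan, had 1.43, 1.72 and 1.56 FPKM in WT and 2.04, 2.05 and 2.23 FPKM in S100a16KO+/- libraries. This was a log2 fold change of 0.42 (SE 0.07, adjusted p = 0.000451). Nid1, which encodes nidogen 1, rose from 1.28 ± 0.0978 to 1.62 ± 0.273 FPKM (SD, n = 3 each; adjusted p = 0.0436). That call was lost without any one of 4 libraries, with an adjusted p of 0.0907, 0.0735 and 0.151 without WT replicates 1, 2 and 3 and of 0.205 without S100a16KO+/- replicate 3. Nid2 had 104 to 135 counts in WT and 58 to 139 in S100a16KO+/- libraries, with a log2 fold change of -0.32 (SE 0.30, adjusted p = 0.517).

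Col4a1 and Col4a2, whose chains assemble into the common type IV collagen trimer, are transcribed away from each other on chromosome 8, and their annotated first exons share 22 bases. Col4a1 (from 11198423 to 11312826, minus strand) had 1.89, 2.62 and 2.23 FPKM in WT and 2.84, 2.90 and 2.58 FPKM in S100a16KO+/- libraries. Its values overlapped between genotypes, and the log2 fold change of 0.30 (SE 0.10, adjusted p = 0.047) passed the threshold narrowly. The adjusted p was 0.174 without WT replicate 1, 0.141 without WT replicate 3, 0.112 without S100a16KO+/- replicate 1 and 0.154 without S100a16KO+/- replicate 2. Col4a2 (from 11312805 to 11449287, plus strand) had 2.42 ± 0.176 FPKM in WT and 2.56 ± 0.137 FPKM in S100a16KO+/- hepatocytes (SD, n = 3 each), with a log2 fold change of 0.08 (SE 0.08, adjusted p = 0.573). The minor chains Col4a3, Col4a4 and Col4a5 had at most 164 counts in any library and log2 fold changes from -0.24 to 0.08, none of which passed.

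Laminins are trimers of an alpha, a beta and a gamma chain. The values of the beta chains diverged, though other genes lie within the span of Lamb3, as given below. Lamb3, the beta chain of the laminin of epithelial anchoring complexes, had 0.802, 0.790 and 0.929 FPKM in WT and 0.405, 0.401 and 0.334 FPKM in S100a16KO+/- libraries. It was below every WT value in every S100a16KO+/- library, with a log2 fold change of -1.15 (SE 0.16, adjusted p = 9.77e-05). Lamb1 and Lamb2, the beta chains of most other laminins, went the other way. Lamb1 had 50, 74 and 42 counts in WT and 112, 115 and 124 counts in S100a16KO+/- libraries, a log2 fold change of 1.09 (SE 0.28, adjusted p = 0.0117), with an adjusted p of 0.0512 without WT replicate 3. Lamb2 rose from 0.431 ± 0.0675 to 0.642 ± 0.105 FPKM (SD, n = 3 each; log2 fold change 0.56, adjusted p = 0.0359). This call was kept without S100a16KO+/- replicate 3 and was lost without each other library in turn, with an adjusted p of 0.0570, 0.0540 and 0.154 without WT replicates 1, 2 and 3 and of 0.162 and 0.0568 without S100a16KO+/- replicates 1 and 2. Lamc1, the common gamma chain and the most abundant laminin transcript, had 1.23 ± 0.119 FPKM in WT and 1.18 ± 0.133 FPKM in S100a16KO+/- hepatocytes (SD, n = 3 each), with a log2 fold change of -0.07 (SE 0.11, adjusted p = 0.730). The alpha chains Lama3, Lama4 and Lama5 had log2 fold changes of 0.65, 0.37 and 0.37 with no overlap between genotypes, but their adjusted p values of 0.156, 0.111 and 0.0865 did not pass. Lama3, the usual alpha partner of Lamb3, had 40 to 91 counts per library.

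The position of Lamb3 (ENSMUSG00000026639, chromosome 1 from 193207699 to 193343878, plus strand) holds other genes. In GENCODE M21 the gene spans G0s2, a lipolysis inhibitor gene on the minus strand from 193272161 to 193273217, whose log2 fold change was -3.39 (adjusted p = 4.05e-13). Of the 9 annotated Lamb3 transcripts, 1 short form (a processed transcript in the annotation) begins 121 bases beyond the start of G0s2 and ends 690 bases before Gm37691, a plus-strand locus within Lamb3 that also fell, with a log2 fold change of -1.64 (adjusted p = 0.000115). Hsd11b1, which Lamb3 also spans on the other strand, rose by a log2 fold change of 0.28 (adjusted p = 0.00092). No exon of Lamb3 shares a base with an exon of G0s2, Hsd11b1 or Gm37691. The library protocol keeps strand, whether the counting used it is not given in the sources used here, and the part of these neighbours in the Lamb3 value was not tested.

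**Figure D4:**
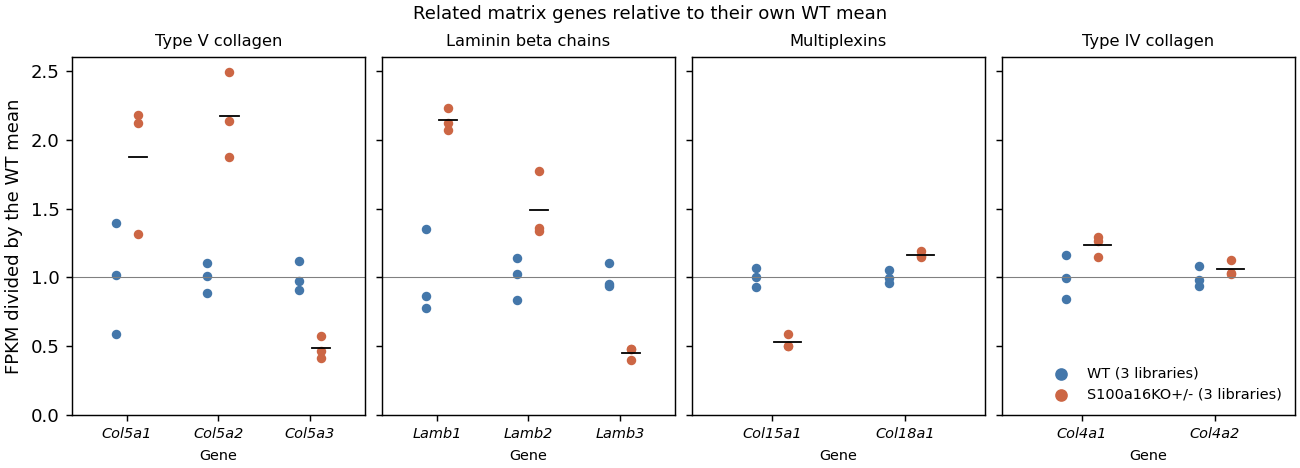
FPKM of related matrix genes in each library divided by the mean of the 3 WT libraries of the same gene (y axis, linear from 0), for type V collagen chains, laminin beta chains, multiplexins and the main type IV collagen chains; points are libraries and black bars are S100a16KO+/- means. In S100a16KO+/- hepatocytes the means of Col5a3, Lamb3 and Col15a1 lie near 0.5 and those of Col5a2 and Lamb1 near 2. The means of Col5a1 and Lamb2 lie between 1 and 2, those of Col18a1 and Col4a1 a little above 1 and that of Col4a2 close to 1.

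Among the fibrillar collagens, 2 genes fell and carried most of the level of the class. The summed FPKM of the 10 fibrillar chains was 5.77, 6.35 and 5.96 in WT and 3.47, 3.64 and 4.37 in S100a16KO+/- libraries, and Col27a1 with Col5a3 made up 90.3% to 93.6% of it in WT and 80.4% to 81.7% in S100a16KO+/- libraries. Col27a1 (ENSMUSG00000045672, chromosome 4 from 63214004 to 63333749, plus strand) encodes a fibrillar collagen best known from cartilage. It had 3.01, 3.18 and 3.16 FPKM in WT and 1.69, 1.91 and 2.12 FPKM in S100a16KO+/- libraries, a log2 fold change of -0.72 (SE 0.08, adjusted p = 9.94e-06). Col5a3 (ENSMUSG00000004098, chromosome 9 from 20770050 to 20815067, minus strand), the least widespread chain of type V collagen, had 2.39, 2.75 and 2.22 FPKM in WT and 1.15, 1.02 and 1.40 FPKM in S100a16KO+/- libraries. Its log2 fold change was -1.06 (SE 0.11, adjusted p = 7.76e-06). For both genes every S100a16KO+/- library lay below every WT library.

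The other type V chains, which regulate the width of type I fibrils, were far less abundant than Col5a3 in WT hepatocytes and did not fall. Col5a2 had 29, 34 and 31 counts in WT and 57, 76 and 67 counts in S100a16KO+/- libraries, a log2 fold change of 1.11 (SE 0.35, adjusted p = 0.0372). That call was lost when any one of the 6 libraries was left out, with adjusted p values from 0.0509 to 0.135. Col5a1 had 31 to 68 counts in WT and 66 to 107 in S100a16KO+/- libraries (log2 fold change 0.91, adjusted p = 0.0828). The main collagens of scar tissue were low, and none of them passed. Col1a1 had 22 to 30 counts in WT and 11 to 40 in S100a16KO+/- libraries, Col1a2 60 to 82 and 64 to 130, and Col3a1 45 to 67 and 63 to 129. Their log2 fold changes of 0.12, 0.57 and 0.74 had adjusted p values of 0.914, 0.198 and 0.140. The summed FPKM of Col1a1, Col1a2 and Col3a1 was at most 0.198 in WT and 0.379 in S100a16KO+/- libraries.

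The multiplexins, collagens of basement membrane zones with interrupted helices, moved in opposite directions. Col15a1 (ENSMUSG00000028339, chromosome 4 from 47208161 to 47313167, plus strand) had 1.07, 1.23 and 1.16 FPKM in WT and 0.579, 0.682 and 0.574 FPKM in S100a16KO+/- libraries. The log2 fold change of Col15a1 was -0.92 (SE 0.14, adjusted p = 0.000209), against the rise of its relative Col18a1 given above.

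Sequences before the RefSeq starts of 3 genes that fell (Col5a3, Col27a1 and Col15a1) and 2 that rose (Col13a1 and Bgn) are printed to show genes called in both directions side by side. They were chosen among called members whose window holds no annotated exon, which leaves out Lamb3, the other gene that fell. RefSeq on GRCm38.p6 had a start for 42 of the 63 members and for 16 of the 18 called ones, and each printed window is the 250 bases before such a start. The Col27a1 window lies inside the span that the deposited table gives for Col27a1, since the table places the gene start before the RefSeq one. The 5 windows lie at chr9:20815068-20815317 (minus strand) for Col5a3, chr4:63215162-63215411 (plus) for Col27a1, chr4:47207762-47208011 (plus) for Col15a1, chr10:61979109-61979358 (minus) for Col13a1 and chrX:73483351-73483600 (plus) for Bgn. Capitals mark the motifs found on either strand of 4 promoter elements: the TATA box (TATAAA), the GC box (GGGCGG), the CCAAT box and the E-box (CACGTG).
Col5a3: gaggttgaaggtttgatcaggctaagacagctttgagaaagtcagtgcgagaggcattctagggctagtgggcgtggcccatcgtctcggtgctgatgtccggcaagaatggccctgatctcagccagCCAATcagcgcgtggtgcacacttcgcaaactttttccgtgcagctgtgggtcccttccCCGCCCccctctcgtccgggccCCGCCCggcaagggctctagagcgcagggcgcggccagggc
Col27a1: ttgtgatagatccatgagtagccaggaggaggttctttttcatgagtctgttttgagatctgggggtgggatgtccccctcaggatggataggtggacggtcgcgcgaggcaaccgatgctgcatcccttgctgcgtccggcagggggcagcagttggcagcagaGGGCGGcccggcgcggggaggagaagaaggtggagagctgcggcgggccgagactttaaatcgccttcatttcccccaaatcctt
Col15a1: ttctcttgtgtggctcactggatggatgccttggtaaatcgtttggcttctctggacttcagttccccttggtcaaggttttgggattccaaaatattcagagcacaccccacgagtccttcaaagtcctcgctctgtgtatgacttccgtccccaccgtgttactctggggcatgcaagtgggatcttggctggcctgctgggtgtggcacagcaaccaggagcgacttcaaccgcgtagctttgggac
Col13a1: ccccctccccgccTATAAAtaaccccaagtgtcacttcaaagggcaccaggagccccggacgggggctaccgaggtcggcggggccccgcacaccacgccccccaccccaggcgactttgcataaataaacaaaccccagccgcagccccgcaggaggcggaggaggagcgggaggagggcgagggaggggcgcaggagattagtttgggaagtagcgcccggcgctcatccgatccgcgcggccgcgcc
Bgn: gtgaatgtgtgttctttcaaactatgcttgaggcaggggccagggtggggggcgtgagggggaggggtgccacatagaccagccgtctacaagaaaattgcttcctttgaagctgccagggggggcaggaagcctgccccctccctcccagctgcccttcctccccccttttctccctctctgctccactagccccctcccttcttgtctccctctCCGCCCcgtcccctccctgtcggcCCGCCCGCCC

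The Col5a3 window held 2 GC boxes (GGGCGG, here as CCGCCC) and 1 CCAAT box, and the Col27a1 window 1 GC box. The Col15a1 window held none of the 4 motifs. The Col13a1 window held TATAAA once, 237 bases before the start, and the Bgn window held 3 GC boxes, of which the last 2 overlap. Among the 32851 windows of the same length in RefSeq, 32.7% held a GC box, 33.8% a CCAAT box, 12.4% TATAAA and 6.02% CACGTG. The windows of Lamb3, before 2 RefSeq starts, held none of the 4 elements. No element was found before all 4 genes that fell, and a match is a string of letters, not a measured site.

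Among the remaining collagens, 2 low-abundance chains rose. Col6a1, a chain of the beaded filaments of type VI collagen, had 63, 19 and 35 counts in WT and 113, 111 and 125 counts in S100a16KO+/- libraries. The log2 fold change was 1.58 (SE 0.38, adjusted p = 0.00721). Its partners Col6a2 and Col6a3 had log2 fold changes of 0.89 and 0.33 with adjusted p values of 0.145 and 0.632. Col6a6 had 7, 10 and 0 counts in WT, all under the limit of 12, and 13, 26 and 14 counts in S100a16KO+/- libraries (adjusted p = 0.242). Col20a1, a fibril-associated collagen, had 170, 195 and 164 counts in WT and 328, 274 and 377 in S100a16KO+/- libraries, a log2 fold change of 0.89 (SE 0.16, adjusted p = 0.000984). The other tested fibril-associated chains, Col9a3, Col12a1, Col14a1 and Col16a1, had log2 fold changes from -0.91 to 0.38 and did not pass.

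Elastic fibre genes and crosslinking enzymes were low. Efemp2, which encodes fibulin-4, a protein that brings lysyl oxidase to elastic fibres, had 46, 23 and 26 counts in WT and 57, 87 and 74 counts in S100a16KO+/- libraries, a log2 fold change of 1.21 (SE 0.39, adjusted p = 0.0383). The call was lost without WT replicate 2 (adjusted p = 0.120), WT replicate 3 (adjusted p = 0.116), S100a16KO+/- replicate 2 (adjusted p = 0.144) or S100a16KO+/- replicate 3 (adjusted p = 0.0869). Its neighbour Mus81 on the opposite strand shares 173 exonic bases with Efemp2, and its log2 fold change was 0.18 (adjusted p = 0.378). Eln, Fbn1, Efemp1, Fbln2 and Fbln5 had at most 77 counts in any library, and none passed. Of the 5 lysyl oxidase genes, Lox and Loxl1 had 0 counts in all WT libraries and at most 11 in any library, under the limit of 12. Loxl2, Loxl3 and Loxl4 had log2 fold changes of 0.28, 0.81 and -0.85, and none passed (adjusted p = 0.454, 0.0815 and 0.603). In all, 9 members were at or under 12 counts in all 6 libraries, and for these a difference was not detectable at this depth. They were Col2a1, Col8a1, Col17a1, Col22a1, Col24a1, Fbln1, Fbln7, Lox and Loxl1. Col23a1 and Lama2, which were also untested, had at most 32 counts in any library.

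Genes of collagen assembly were called in 1 direction. From a list of enzymes, chaperones and export factors, 27 were tested, of which 8 were higher and 0 lower at an adjusted p under 0.05, beside the 11.6% higher and 11.2% lower over all tested genes. Sec24d, a coat subunit of the vesicles that export procollagen, rose from 3.98 ± 0.134 to 9.18 ± 0.376 FPKM (SD, n = 3 each), with a log2 fold change of 1.20 (SE 0.07, adjusted p = 1.58e-08). P3h1, a collagen prolyl 3-hydroxylase, rose from 2.36 ± 0.314 to 3.73 ± 0.498 FPKM, and Ppib, the cyclophilin of the same complex, from 43.4 ± 2.17 to 65.6 ± 6.53 FPKM (SD, n = 3 each). Their log2 fold changes were 0.65 (adjusted p = 0.000364) and 0.59 (adjusted p = 2.06e-06). The median over the list was 0.39. P4hb and Ppib also serve the folding of other secreted proteins.

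Matrix receptors were called in both directions, about as often as all tested genes. Of 23 tested receptors 3 were higher and 2 lower, 5 of 23 in all. Over all tested genes 22.8% were called, 11.6% higher and 11.2% lower. Itga5, the alpha chain of the main fibronectin receptor, fell from 5.67 ± 0.559 to 3.21 ± 0.248 FPKM (SD, n = 3 each), with a log2 fold change of -0.83 (SE 0.08, adjusted p = 2.86e-06), while Fn1 itself rose. Itga9, Sdc3 and Sdc4 rose with log2 fold changes of 0.65, 0.52 and 0.44 (adjusted p = 0.000269, 0.000279 and 0.000194). Sdc1 fell by 0.18 on the log2 scale (adjusted p = 0.0263), with FPKM values that overlapped between genotypes. Its mean was below that of Sdc4 in both genotypes, 52.1 against 62.8 FPKM in WT and 46.1 against 85.8 FPKM in S100a16KO+/- hepatocytes. Among 24 tested genes of TGF-beta signalling, the pathway that drives collagen synthesis in stellate cells, 7 were higher and 2 lower, beside the same shares. Tgfb1 rose from 0.898 ± 0.0819 to 1.67 ± 0.135 FPKM (SD, n = 3 each), with a log2 fold change of 0.88 (adjusted p = 0.000263). Tgfbi, a matrix protein induced by the pathway, and Tgif1, a corepressor of it, had log2 fold changes of 0.70 and 0.57 (adjusted p = 0.000148 and 0.00402), and Tgfbr1, a receptor chain, and Ski, a repressor, had -0.33 and -0.23 (adjusted p = 0.0128 and 0.0351).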

How the data were processed

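Hepatocyte RNA of WT and S100a16KO+/- mice, all alcohol-fed (3 libraries each), was measured by stranded poly(A) sequencing. The authors deposited 1 table with estimated counts, not scaled for library size, and FPKM values, scaled by the authors for transcript length and library size. The submitters' processing notes name cutadapt 1.9, HISAT2 2.0.4, UMI-tools, StringTie 1.3.4d, DESeq2 and edgeR on mm10. The estimated counts were taken as deposited, and 1 fragment was worth about 4 counts. All 63 members were found by identifier in GENCODE M21 (GRCm38), 58 with the same start and end, and positions are those of the table. The values of 1 untested member are not reported here.

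The members and gene lists were chosen with earlier results of these data known. Groups came from the sample titles. The comparison was fitted on the whole table in edgeR 4.0.16 (R 4.3.3) with filterByExpr, TMM scaling and a robust quasi-likelihood test, two-sided, without covariates, although the paper used DESeq2. P values were adjusted by Benjamini-Hochberg over the 15957 tested genes. The main fit, the replicate block, the other filters, RLE size factors, DESeq2 and limma with an added constant of 1 were tested on simulated data. The fits with libraries left out, with counts divided by 4 and with limma on log2(FPKM + 0.1) were not. Named members had a mean FPKM of at least 1, an adjusted p under 0.05, an unadjusted p under 0.05 with a 2-fold change, or more than 12 counts in all libraries of 1 genotype only, with at most 12 in all of the other. Named list genes were the 3 largest rises and falls among called genes of at least 1 FPKM, and others were named after their values were seen. Lists covered collagen assembly, matrix receptors, TGF-beta signalling and markers of hepatocytes, stellate cells, endothelium, macrophages, cholangiocytes, mesothelium and blood. Alternatives were the replicate block, leaving out each library, other filters, RLE size factors, DESeq2 1.42.0, limma 3.58.1 on log2(FPKM + 1) and log2(FPKM + 0.1) at a mean FPKM of at least 0.1, counts divided by 4, and leaving out both libraries that stood apart, which was added after the data were seen.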

Additional observations from a re-analysis of the deposited data

How the results depend on the processing

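The 4 falls (Col27a1, Col5a3, Lamb3 and Col15a1) and 7 of the 14 rises (Bgn, Fn1, Sparc, Hspg2, Col6a1, Col20a1 and Col13a1) had an adjusted p under 0.05 in all 15 alternatives. The other 7 rises were lost in at least 1. All of these fits start from the deposited values, so the part of neighbouring genes in the Lamb3 value was not tested by them. The number of higher members at an adjusted p under 0.05 was 8 to 11 with each library left out in turn, 8 with limma on either FPKM scale and 9 without both libraries that stood apart. By the 2-fold criterion, 3 to 6 members were higher with a library left out, 2 at a mean of at least 1 CPM, 0 with limma on log2(FPKM + 1) and 1 on log2(FPKM + 0.1); 1 to 3 were lower with a library left out, 1 of them without WT replicate 2, and 0 with limma on either scale. The added constant shrinks fold changes of genes under 1 FPKM by its construction, and the median log2 fold change was 0.11 on log2(FPKM + 1). The fold change of Lamc1, which did not pass in any fit, was -0.15 to -0.02 with a library left out and 0.017 without both libraries that stood apart. Deviations of same-numbered libraries correlated at 0.03, 0.03 and 0.10, and those of differently numbered libraries at -0.07 to 0.04. With 3 libraries per genotype, these values cannot show whether the replicate numbers pair the libraries. With the replicate block 11 members were higher and 4 lower, and the calls of Nid1, Efemp2 and Col5a2 were lost. Depth limits the members at or under 12 counts in a library.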
